A study of Sciaenops ocellatus with 24 samples.

Results

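The members described here are the reads counted under 2 miRNA names, dre-miR-124-4-5p and ola-miR-124-5p, out of 260 names listed over 6 count tables. They were chosen by name, with earlier results of these data known. Both names were listed in each of the 6 tables and counted in each of the 24 libraries, so both passed the filter on low counts in every fit. The tables pair names with counts and hold no sequence, and the prefixes dre and ola stand for zebrafish and medaka.

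miR-124 is a conserved miRNA of neurons. In vertebrates it is produced from several loci, is switched on as progenitors become neurons, and represses mRNAs of non-neuronal cells, among them the splicing regulator PTBP1 in mammals. Its precursor gives a strand from each arm, of which the 3p strand is the one usually described as the guide that binds targets. Both names here carry the 5p arm. That arm was taken from the name and not checked against reads, and each name means here the reads that the authors counted for it.

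Small RNA was sequenced from pooled whole larvae of the red drum, Sciaenops ocellatus, at 48 hours post fertilization (48hpf), in a pair of oil exposure experiments. In the first, larvae were exposed to 1.25%, 2.50% or 5.00% by volume of a high-energy water accommodated fraction (HEWAF) of slick oil (OFS), a naturally weathered oil taken from the sea surface in the Gulf of Mexico, or to its control at 0%. In the second they were exposed to 0.135%, 0.27% or 0.54% of a HEWAF of source oil (MASS), a pipeline oil used as a surrogate for the Deepwater Horizon source, or to a control of that experiment at 0%. A HEWAF is seawater into which oil has been blended. Each of the 8 groups had 3 libraries. Nothing in the labels says that these came from separate spawns or tanks, so p-values measure the spread between these libraries, which may be technical. Per the labels, embryos of all groups had been treated with formalin on arrival.

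Total counts were 2820454 to 4346165 per library at 5.00% slick oil and 4440488 to 9741582 in the other groups, so the 5.00% slick libraries were the shallowest. The whole larva is a mixture of tissues, and miRNA names of 8 tissue lists were looked up in the 6 control libraries. Counted in each of these were 11 of 17 nervous system, 3 of 3 muscle, 4 of 5 eye and 5 of 5 blood names. So were 3 of 3 skin, 2 of 3 pancreas, 2 of 2 liver and gut and 2 of 4 connective tissue names. The names so counted covered 8 of 12 miRNA numbers in the nervous system list, 3 of 4 for muscle and 4 of 5 for eye. They covered 3 of 3 for blood, 2 of 2 for skin and 2 of 3 for pancreas. For liver and gut it was 1 of 3, and for connective tissue 2 of 3. Names of these lists outside the 131 were not looked up. The nervous system names took 41.8% to 57.8% of the counts that the 131 names had in a control library. Their share of the whole library was not computed. In such samples fewer neurons and less miR-124 per neuron cannot be told apart.

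Within this nervous system share the 5p names of miR-124 were a minor component. No miR-124 name of the 3p arm was listed, so the level of that strand is not known. Levels over the 24 libraries are given in CPM, a count rate, scaled by TMM. Its base here was the summed counts of the 96 names counted in every library, not the library total. The values are therefore higher than rates over library totals. In slick control 1, for example, dre-miR-124-4-5p stood at 522 CPM with 2439 counts in a library total of 9039751. On this scale dre-miR-124-4-5p had a mean level of 431 CPM and ola-miR-124-5p one of 503 CPM. By mean level they ranked 64 and 59 of the 96 names. Both names together amounted to 819.66 ± 29.9 CPM in the source controls and 1096 ± 178 CPM in the slick controls (SD, n = 3). Counting error alone was 1.41% to 4.58% of a member's value in a library.

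**Figure D1:**
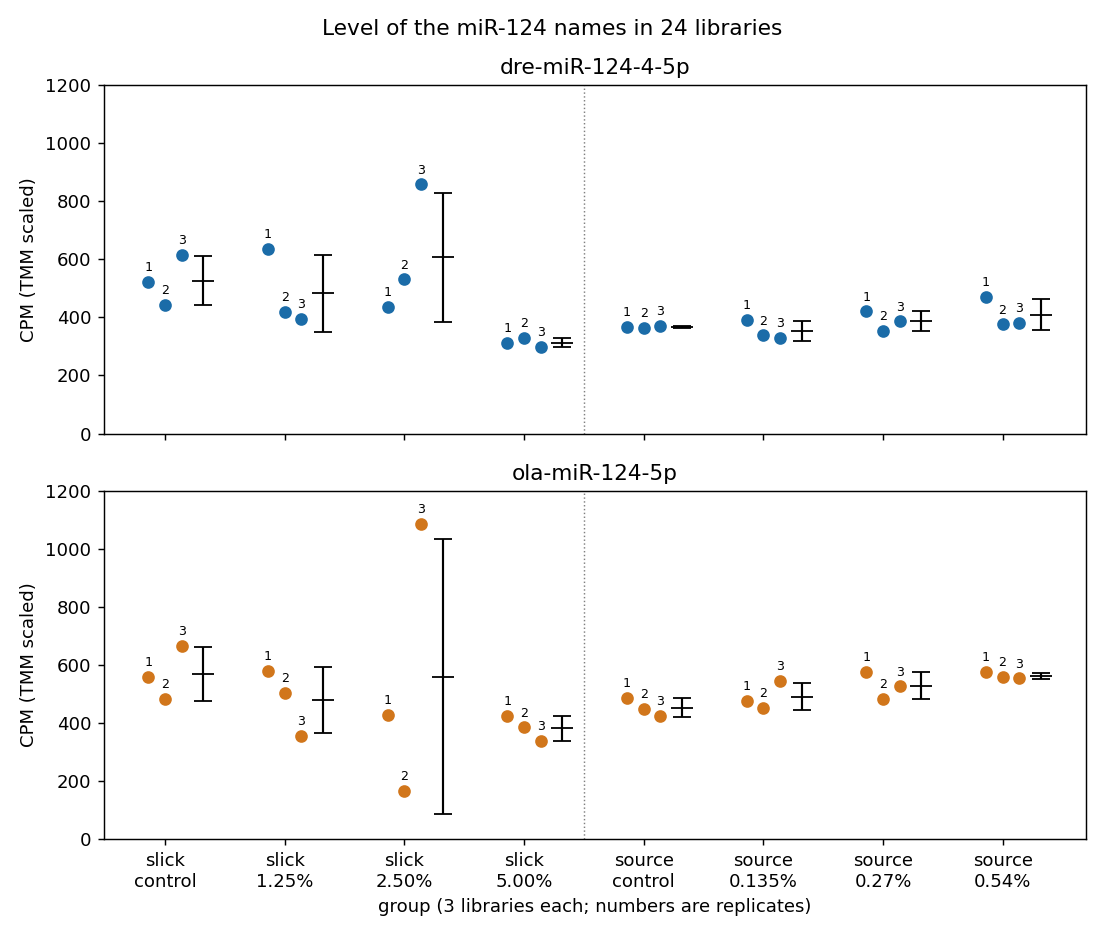
Level of dre-miR-124-4-5p (top) and ola-miR-124-5p (bottom) in CPM of the names counted in all 24 libraries, scaled by TMM. Points are libraries, numbered by replicate, and the bar beside them is the group mean ± SD (n = 3). The 5.00% slick libraries lie at 298 to 329 CPM for dre-miR-124-4-5p, and the ola-miR-124-5p values at 2.50% slick oil run from 167 to 1085 CPM.

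The groups fell in a different order for each name. For dre-miR-124-4-5p the order from the highest mean level was 2.50% slick oil (608 ± 222 CPM), slick control (527 ± 85.5 CPM), 1.25% slick oil (483 ± 132.03 CPM), 0.54% source oil (409 ± 53.1 CPM), 0.27% source oil (386 ± 33.9 CPM), source control (367 ± 3.62 CPM), 0.135% source oil (353 ± 33.9 CPM) and 5.00% slick oil (313 ± 15.3 CPM). The libraries of neighbouring groups overlapped at every step of this order except the last, where the lowest 0.135% source library was at 329.25 CPM and the highest 5.00% slick library at 328.58 CPM. The 5.00% slick group was thus the lowest of the 8, by a margin far smaller than the spread of its neighbour.

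For ola-miR-124-5p the order was slick control (569 ± 92.4 CPM), 0.54% source oil (562 ± 11.5 CPM), 2.50% slick oil (560 ± 473 CPM), 0.27% source oil (528 ± 46.1 CPM), 0.135% source oil (491 ± 48.0 CPM), 1.25% slick oil (479 ± 113 CPM), source control (453 ± 32.1 CPM) and 5.00% slick oil (382 ± 43.1 CPM). All neighbours in this order overlapped. The group at 5.00% slick oil again had the lowest mean.

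The first question was whether miR-124 differed between larvae exposed to slick oil and the controls of that experiment. At 5.00% slick oil dre-miR-124-4-5p fell and ola-miR-124-5p was lower without passing the test. dre-miR-124-4-5p was counted 2439, 2694 and 4179 times in the controls and 580, 1002 and 570 times at 5.00% slick oil. Scaled within this comparison its level was 408 ± 68.0 CPM in the controls and 229 ± 17.8 CPM with exposure, and the highest exposed library (249 CPM) stayed below the lowest control (349 CPM). The log2 fold change was -0.83 ± 0.17 (SE; adjusted p = 0.0286, edgeR quasi-likelihood test, n = 3 against 3), a level 0.561 times that of the controls. Of the 109 names tested it had the third largest change in either direction.

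ola-miR-124-5p was counted 2611, 2931 and 4533 times in the slick controls and 787, 1173 and 647 times at 5.00%. Its level was 441 ± 74.0 CPM in the controls and 279 ± 31.0 CPM with exposure, and the groups did not overlap here either (379 CPM for the lowest control against 302 CPM for the highest exposed library). The log2 fold change was -0.66 ± 0.17 with an adjusted p of 0.0554, just above the threshold of 0.05.

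At this concentration edgeR called 5.5% of the 109 names in either direction, 2.75% as lower and 2.75% as higher. The groups did not overlap in 23.9% of the names, and in 11% the exposed libraries were the lower. The call of dre-miR-124-4-5p was kept without control 2 and lost when any other single library was left out, while the log2 fold change stayed between -0.91 and -0.69. It was also lost over all names (adjusted p = 0.0733), with no count filter (adjusted p = 0.162) and in a fit of all 12 slick libraries (adjusted p = 0.298). The authors' deposited table for 5.00% slick oil gave dre-miR-124-4-5p a log2 fold change of -0.82 (FDR = 1.4e-07) and ola-miR-124-5p one of -0.65 (FDR = 0.000271), beside calls for 11.1% of its names.

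**Figure D2:**
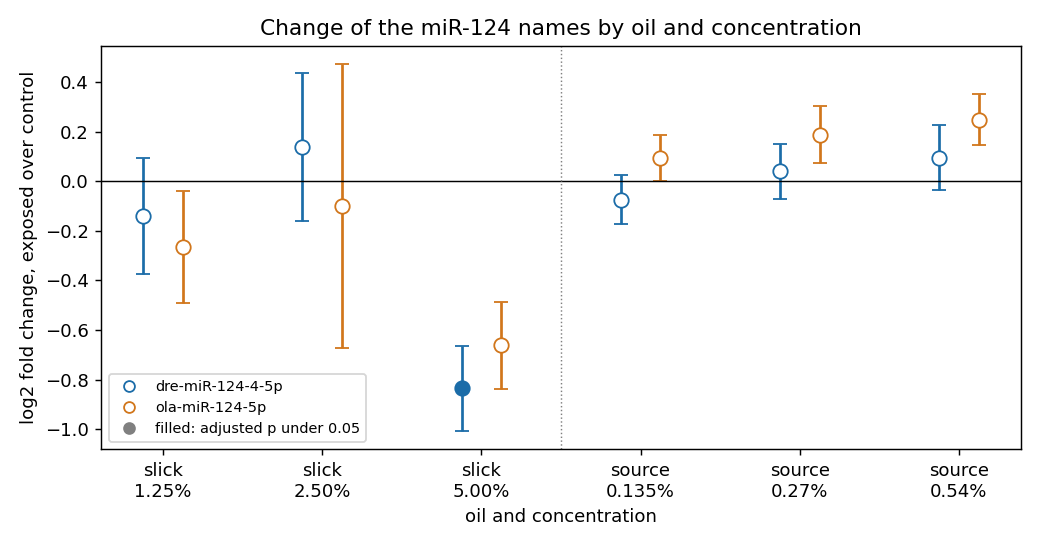
Log2 fold change of each miR-124 name, exposed over control, by oil and concentration, with bars of 1 SE from edgeR (n = 3 against 3). The filled point, dre-miR-124-4-5p at 5.00% slick oil (-0.83), is the 1 value with an adjusted p under 0.05. The widest bar is that of ola-miR-124-5p at 2.50% slick oil (0.57).

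At the lower slick concentrations neither name was called, and 0% of the 117 names were called at 1.25% or at 2.50%. At an unadjusted p under 0.05 there were 3 and 8 names, and DESeq2 called 1 and 0. At 1.25% dre-miR-124-4-5p was counted 2946, 2413 and 1234 times, with a log2 fold change of -0.14 ± 0.23. ola-miR-124-5p was counted 2683, 2898 and 1112 times there, with -0.27 ± 0.22. Without 1 library these ran from -0.41 (without the first 1.25% library) to -0.034 (without control 3) and from -0.44 (without the first 1.25% library) to -0.13 (without the third). Exposed and control libraries overlapped for both names, as they did for all but 7.69% of the names. The third library of this group had the lowest counts of both names and also the smallest total, 4440488.

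At 2.50% slick oil the 3 libraries disagreed with each other. Names in general varied more here: edgeR's common coefficient of variation between libraries was 36.7%, against 23.1% at 1.25% and 21.1% at 5.00%. dre-miR-124-4-5p was counted 2297, 1514 and 3956 times, and its log2 fold change was 0.14 ± 0.30. ola-miR-124-5p was counted 2257, 477 and 5003 times, with -0.10 ± 0.57. The third library held the highest levels of both names among all 24 (858 CPM and 1085 CPM). The second held the lowest ola-miR-124-5p level of all (167 CPM) while its dre-miR-124-4-5p level, 530 CPM, lay within the range of the controls. Single libraries set the sign of these changes: without the third library dre-miR-124-4-5p was at -0.18, and without the second ola-miR-124-5p was at 0.35. For both names exposed and control libraries overlapped, and they did not in 13.7% of all names.

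Over the 12 libraries of slick oil, where 1% of 100 names had a called slope, dre-miR-124-4-5p had a log2 change of -0.71 ± 0.30 from the control to the highest concentration (adjusted p = 0.393) and ola-miR-124-5p one of -0.53 ± 0.41 (adjusted p = 0.704). Neither slope was called. Without the third 2.50% library the slope of dre-miR-124-4-5p was -0.82 with an adjusted p of 0.041. That fit called 4% of 100 names, 1 higher and 3 lower. The highest set against the lowest concentration, a comparison that involves no control, gave -0.61 ± 0.26 (adjusted p = 0.461) for dre-miR-124-4-5p and -0.31 ± 0.45 (adjusted p = 0.924) for ola-miR-124-5p. There edgeR called 0% of 100 names, against 8 at an unadjusted p under 0.05 and 1 called by DESeq2.

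For source oil the same question gave log2 fold changes between -0.074 and 0.25, none of them called at a single concentration. In the source controls dre-miR-124-4-5p was counted 1720, 1718 and 1615 times. It was counted 2194, 1863 and 1481 times at 0.135%, 2654, 1814 and 2018 times at 0.27% and 3010, 1925 and 2425 times at 0.54%. The log2 fold changes from low to high were -0.074 ± 0.098, 0.039 ± 0.11 and 0.095 ± 0.13, with adjusted p of 0.714, 0.815 and 0.58. The exposed libraries overlapped with the controls at each concentration, whereas 26.3%, 39.1% and 60.5% of all names did not. The controls lay close together (SD of 4.41 on a mean of 313 CPM beside 0.54%), and the first library of the 0.54% group was the highest at 399 CPM. Counting error alone was 2.41% to 2.49% of a control value, more than this SD, so the SD likely understates the spread.

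ola-miR-124-5p was counted 2291, 2108 and 1843 times in the source controls, then 2666, 2493 and 2450 times at 0.135%, 3633, 2487 and 2748 times at 0.27% and 3682, 2857 and 3523 times at 0.54%. Its log2 fold changes were 0.094 ± 0.092, 0.19 ± 0.12 and 0.25 ± 0.10, with adjusted p of 0.617, 0.249 and 0.0809. The groups did not overlap at 0.54%, where the controls reached 417 CPM and the lowest exposed library was at 432 CPM. In that comparison 30.3% of the 119 names did not overlap with the exposed libraries higher. edgeR called 39.5% of the names there, 23.5% at 0.27% and 0% at 0.135%. The 3 comparisons of an oil share their controls, so their values are not independent of each other.

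The slope of ola-miR-124-5p over the 12 source libraries passed the test. Its log2 change from the control to the highest concentration was 0.30 ± 0.10 (adjusted p = 0.0227, edgeR), or 1.23-fold. edgeR called 52.3% of the 109 names in this fit and 27.5% as higher, so a called slope was the common case for source oil. Without the first library at 0.54% the adjusted p was 0.0841, and without control 3 it was 0.0666. Scaled by library totals alone, the calls leaned to the higher side: 49 higher and 10 lower for this slope against 30 and 27 under TMM, 43 and 14 against 21 and 26 at 0.54%, and 31 and 2 against 11 and 16 at 0.27%. The slope of dre-miR-124-4-5p was 0.18 ± 0.12 (adjusted p = 0.215), and 0.028 without the first library at 0.54%. The highest set against the lowest source concentration gave 0.23 ± 0.13 for dre-miR-124-4-5p and 0.21 ± 0.11 for ola-miR-124-5p (adjusted p = 0.211 and 0.186), where 22.9% of the names were called, 13 higher and 12 lower (41 and 2 by library totals alone). Without the first library at 0.54% the value of dre-miR-124-4-5p was 0.066. The authors' deposited table for 0.54% source oil gave ola-miR-124-5p a log2 fold change of 0.25 (FDR = 0.014) and dre-miR-124-4-5p one of 0.099 (FDR = 0.753), with 31.8% of its names called.

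Whether the oils differed in their effect was tested on the difference between their responses at the matched rank of concentration, since the percentages themselves differ. At the highest rank the slick response minus the source response was -0.91 ± 0.30 on the log2 scale for dre-miR-124-4-5p (adjusted p = 0.123) and -0.89 ± 0.50 for ola-miR-124-5p (adjusted p = 0.255). Neither difference passed the test. edgeR called 0% of the 96 names, with 19 at an unadjusted p under 0.05, while DESeq2 called 4. At the middle rank the differences were 0.13 ± 0.30 and -0.25 ± 0.50, and at the lowest -0.068 ± 0.30 and -0.37 ± 0.50, with 0% called at either rank, 13 and 2 names at an unadjusted p under 0.05 and 2 and 0 called by DESeq2.

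The control larvae of both experiments were also compared. dre-miR-124-4-5p was at 527 ± 85.5 CPM in the slick and at 367 ± 3.62 CPM in the source controls, which did not overlap (443 CPM at the lowest against 371 CPM at the highest). The SD of the source controls, 0.985% of their mean, was below their counting error of 2.41% to 2.49% and likely understates the spread. The share of all names without overlap was not counted for this contrast. The log2 difference was 0.52 ± 0.21 with an adjusted p of 0.0622, in a contrast that called 31.2% of 96 names (11 higher and 19 lower, or 12 and 11 by library totals alone). For ola-miR-124-5p it was 0.33 ± 0.35 (adjusted p = 0.525), and the controls overlapped. Both control groups were at 0% oil, so this contrast is between the experiments. Experiment and oil cannot be told apart in a difference of level between exposed slick and exposed source libraries.

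The names were then compared with each other within each library, a ratio that no scaling of the libraries can change. dre-miR-124-4-5p was counted 0.934, 0.919 and 0.922 times as often as ola-miR-124-5p in the slick controls, where the ratio was nearly constant. Each name had a counting error of 1.49% to 2.02% in these libraries, so the ratios are not known more closely than that. In the source controls the ratio was lower and less even, 0.751, 0.815 and 0.876. The ratio was lower in the source than in the slick controls in each library. At 0.27% source oil it was 0.731, 0.73 and 0.734, and the counts of both names there moved in parallel.

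At 5.00% slick oil the ratio was 0.737, 0.854 and 0.881, below all 3 slick controls. The difference in log2 ratio was -0.17 (exact permutation test, two-sided, p = 0.1, the smallest that 3 against 3 libraries can give). At 0.27% source oil it was -0.15 with the same p of 0.1 in the exact test, again with no overlap. Of the single names, 23.9% did not overlap at 5.00% slick oil and 39.1% at 0.27% source oil, in either direction. The share over ratios of other names was not counted. At 5.00% slick oil dre-miR-124-4-5p was thus lower relative to ola-miR-124-5p in each exposed library than in any control, but the design allows no p under 0.1. The gaps were small beside counting error, which was not computed for the ratio. The third exposed library (0.881) lay near the lowest control (0.919), with counting errors of 4.19% and 3.93% for its names. At 0.27% source oil 0.734 lay near the lowest control (0.751), with counting errors of 1.66% to 2.35% for the exposed values. At 0.135% and 0.54% source oil the differences were -0.18 and -0.17 with exact p of 0.4 and 0.3, and the groups overlapped.

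The ratio departed furthest in the second library at 2.50% slick oil, where dre-miR-124-4-5p was counted 3.17 times as often as ola-miR-124-5p. The other libraries of that group had ratios of 1.02 and 0.791, and those at 1.25% slick oil 1.1, 0.833 and 1.11. The mean difference of the 2.50% group from its controls, 0.56 on the log2 scale (exact permutation p = 0.7), was -0.044 without that library. In every other library the ratio lay between 0.605 and 1.11.

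**Figure D3:**
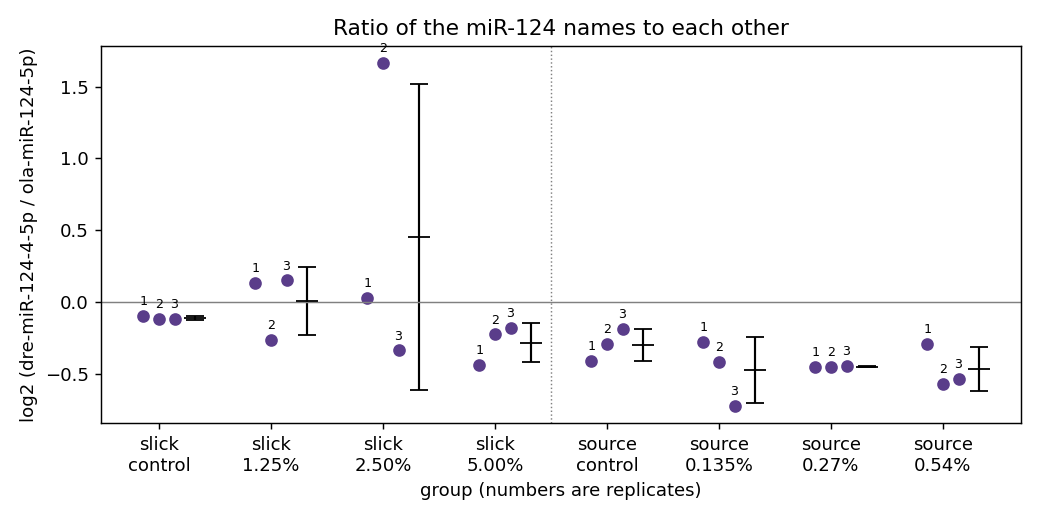
Log2 ratio of dre-miR-124-4-5p to ola-miR-124-5p counts in each library, with a count of 1 added to both; points are numbered by replicate and the bar beside them is the group mean ± SD (n = 3). The second library at 2.50% slick oil stands at 1.66, and the other 23 libraries lie between -0.73 and 0.15.

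Other miRNAs of the nervous system were set beside miR-124. The list, chosen by miRNA number, also held miR-9 of neural progenitors, miR-128 of neurons, aca-miR-132-5p and the miR-212 names, whose mammalian counterparts respond to neuronal activity, and names such as miR-137, miR-138, miR-153 and miR-218. Between 26 and 30 such names were listed per table besides both members, but 8 to 11 were counted in every library of a comparison and could be fitted. The rest were at 0 in at least 1 library.

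At 5.00% slick oil 0 of the 8 other nervous system names were called in either direction (edgeR; of all 109 names 23 were at an unadjusted p under 0.05, and 12, or 11%, were called by DESeq2; by library totals edgeR's calls were 0 higher and 3 lower). Their median log2 fold change was 0.026, beside 0.0077 over all 109 names. The most negative among them were aca-miR-132-5p with -0.52 ± 0.16 (adjusted p = 0.094) and ssa-miR-212a-5p with -0.48 ± 0.20 (adjusted p = 0.204). The abundant names went the other way, aca-miR-9-5p with 0.16 ± 0.15 and mdo-miR-128a-5p with 0.37 ± 0.21, neither of them called. dre-miR-153b-5p, ssa-miR-137-5p, xtr-miR-138 and aca-miR-212-5p were at 0.044 ± 0.17, 0.0077 ± 0.20, 0.17 ± 0.25 and -0.19 ± 0.17.

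Relative to the other nervous system names of its own library, miR-124 was below every slick control in each library at 5.00% slick oil. For each library the counts of both members were divided by the summed counts of 7 names counted in all 24 libraries (85.2% of that sum being aca-miR-9-5p and 14.1% mdo-miR-128a-5p). The log2 of this quotient was -8.90 ± 0.37 in the slick controls and -9.83 ± 0.19 at 5.00%, without overlap. Of the 109 single names, 23.9% did not overlap there in either direction. The difference was -0.92 (exact permutation test, two-sided, p = 0.1, the smallest possible), and -1.11 without aca-miR-9-5p in the sum and -0.65 when each of the 7 names had equal weight.

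At 0.54% source oil 3 of 8 other nervous system names fell and 0 rose, where 21.8% of all names were called as lower, with a median log2 fold change of -0.26 beside 0.03 over all 119 names. The called names were mdo-miR-128a-5p (-0.82 ± 0.21, adjusted p = 0.0174), aca-miR-132-5p (-0.58 ± 0.10, adjusted p = 0.00559) and aca-miR-212-5p (-0.32 ± 0.10, adjusted p = 0.0405). dre-miR-153b-5p had the 1 positive change of the list, 0.28 ± 0.10 (adjusted p = 0.0591). aca-miR-9-5p was at -0.20 ± 0.10, ssa-miR-137-5p at -0.13 ± 0.27, ssa-miR-212a-5p at -0.10 ± 0.12 and oha-miR-9-4-5p, a low name, at -0.66 ± 0.24, none of them called. Without 1 library the call of aca-miR-132-5p was kept in 6 of 6 fits, that of mdo-miR-128a-5p in 4 and that of aca-miR-212-5p in 1. Over all names that of aca-miR-132-5p was kept and the others were not (adjusted p = 0.0935 and 0.0722), and with no count filter all 3 were lost. By library totals alone aca-miR-212-5p was at -0.094 (adjusted p = 0.418), and with all 12 libraries its adjusted p was 0.117.

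Relative to the 7 other names miR-124 was above every source control in each library at 0.54% source oil, with a log2 quotient of -8.63 ± 0.32 against -9.11 ± 0.049 in the source controls. The difference of 0.48 came without overlap (exact permutation p = 0.1, the smallest possible), and was 0.98 without aca-miR-9-5p. Of the 119 single names, 60.5% did not overlap there in either direction. Without that name the sum was mostly mdo-miR-128a-5p (14.1% of the full sum, each remaining name 0.213% or less). mdo-miR-128a-5p was itself called lower at 0.54% and at 0.27%. At 0.27% source oil the difference was 0.30, again without overlap and with an exact p of 0.1 (0.86 without aca-miR-9-5p), and 2 of 10 other nervous system names fell there, mdo-miR-128a-5p (-0.80 ± 0.16, adjusted p = 0.022) and aca-miR-132-5p (-0.42 ± 0.12, adjusted p = 0.0365). At 0.27% edgeR called 13.9% of all names as lower, and 39.1% of the 115 single names did not overlap in either direction. Without 1 library the call of mdo-miR-128a-5p was kept in 3 of 6 fits and that of aca-miR-132-5p in 1 of 6, and neither was kept over all names (adjusted p = 0.0737 and 0.109) or with no count filter (adjusted p = 0.116 and 0.143). That of aca-miR-132-5p was also lost by library totals alone (-0.23, adjusted p = 0.265). At 0.135% source oil 0 of 9 were called, the quotient differed by -0.087 (exact permutation p = 0.4), or by 0.43 without aca-miR-9-5p and 0.072 with equal weights, so its sign depended on the sum, and edgeR called 0% of 114 names, with 27 at an unadjusted p under 0.05 and 13 called by DESeq2.

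At the lower slick concentrations 0 of 9 and 0 of 11 other nervous system names were called. The log2 quotient differed from the controls by -0.10 at 1.25% and by 0.14 at 2.50% (exact permutation p = 0.8 and 0.9). At 2.50% its SD was 0.90, with the third library at -7.76 and the second at -9.53.

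**Figure D4:**
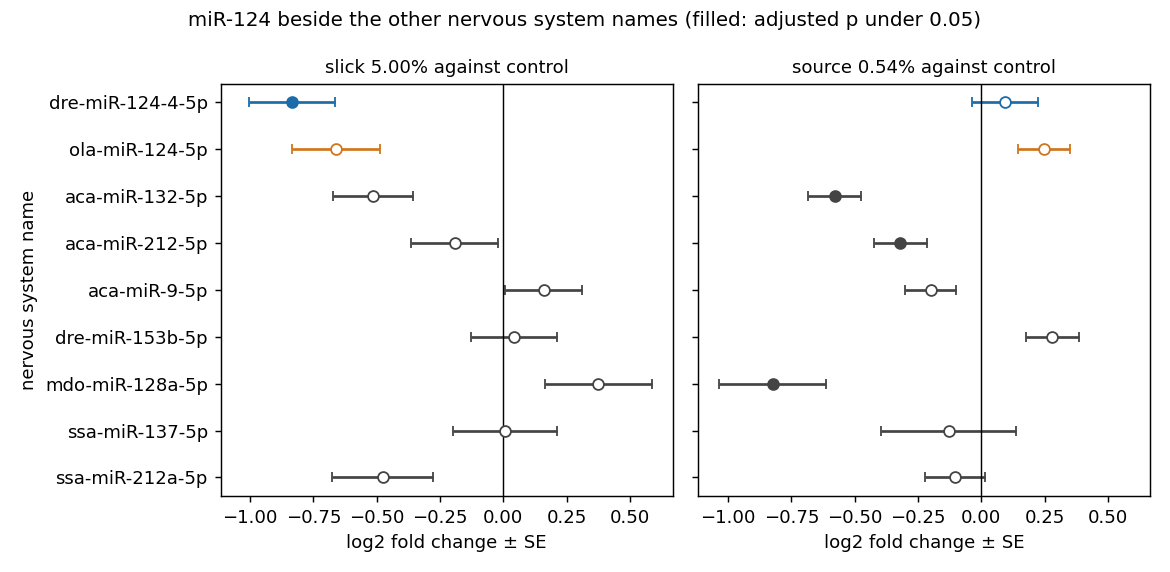
Log2 fold change ± SE (edgeR, n = 3 against 3) of both miR-124 names and the 7 other nervous system names counted in all 24 libraries, at the highest concentration of slick oil (left) and of source oil (right). Filled points have an adjusted p under 0.05: dre-miR-124-4-5p (-0.83) on the left, and mdo-miR-128a-5p, aca-miR-132-5p and aca-miR-212-5p on the right.

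Finally, the names whose levels followed miR-124 most closely were sought by Pearson's r of log2 CPM over the 12 libraries of each oil, ranked by the lower of both values among 94 names. These values are descriptions, and they share libraries, depth and scaling. The 5 names most like dre-miR-124-4-5p were oan-miR-20a-5p (r = 0.734 for slick and 0.733 for source oil), dre-miR-93 (0.638 and 0.665), ccr-miR-454b (0.599 and 0.594), ola-miR-106a (0.784 and 0.565) and ccr-miR-221 (0.642 and 0.555). miR-20a, miR-93 and miR-106a belong to the miR-17 family. The median r over all 94 names was -0.12 for slick and -0.04 for source oil. ola-miR-124-5p itself took place 6, with 0.516 and 0.58, values that did not hold without the 2 farthest libraries (0.117 and -0.201).

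The likeness was also computed without 2 libraries of each oil. Leaving out the most extreme libraries of a member narrows its range, which by itself tends to lower r. Other pairs of libraries were not left out, so whether the likeness rested on few libraries was not tested. Without the 2 libraries in which dre-miR-124-4-5p lay farthest from its median, r with oan-miR-20a-5p was 0.54 for slick and 0.285 for source oil, and r with dre-miR-93 was 0.313 and 0.164. For ccr-miR-454b it was 0.217 and 0.14, and for ola-miR-106a 0.682 and 0.0415. ccr-miR-221 kept 0.725 and 0.419. The libraries left out were the third of the controls and of the 2.50% group for slick oil, and the first at 0.27% and at 0.54% for source oil.

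For ola-miR-124-5p the 5 most like names were sha-miR-200a, an epithelial miRNA (0.777 for slick and 0.778 for source oil), the muscle miRNA rno-miR-133b-5p (0.76 and 0.901), ccr-miR-454b (0.718 and 0.759), tgu-miR-142-5p of blood cells (0.656 and 0.739) and dre-miR-2187-5p (0.579 and 0.72). Without the 2 farthest libraries r was 0.382 to 0.517 for these names in slick oil and 0.487 to 0.808 in source oil. dre-miR-124-4-5p took place 9 of the 94 names. The r of both miR-124 names with each other changed with the libraries left out. In slick oil it was 0.884 without libraries 2 and 3 at 2.50%, those farthest from the median of ola-miR-124-5p, but 0.117 without the 2 farthest for dre-miR-124-4-5p. In source oil, where the 2 farthest libraries were the same for both names, it turned from 0.58 to -0.201 without them.

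None of the 7 other nervous system names was among the 5 most like either member. As they were 7 of the 94 names ranked, a list of 5 would often hold none of them. For dre-miR-124-4-5p they took places 42 to 92 of 94, with r between -0.764 and 0.403 in slick and between -0.799 and -0.178 in source oil. For ola-miR-124-5p they took places 16 to 88, the first being dre-miR-153b-5p (0.415 and 0.403). Without the 2 farthest libraries that r was -0.264 in slick and 0.783 in source oil. mdo-miR-128a-5p had r of -0.833 and -0.799 with ola-miR-124-5p, and of -0.801 and -0.683 without the 2 farthest libraries. With dre-miR-124-4-5p its r was -0.764 and -0.492, and without the 2 farthest libraries -0.633 in slick oil and 0.153 in source oil, where the sign turned.

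**Figure D5:**
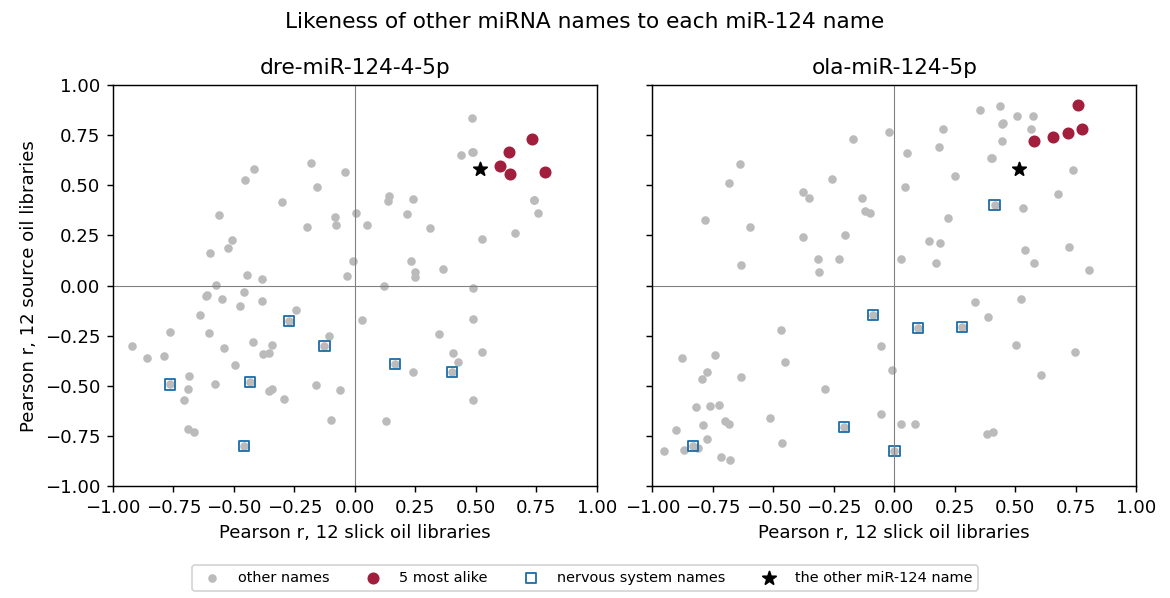
Pearson's r of each of 94 names with dre-miR-124-4-5p (left) and ola-miR-124-5p (right), over the 12 slick libraries (horizontal axis) and the 12 source libraries (vertical axis). Filled red points are the 5 most alike names, squares the 7 other nervous system names and the star the other miR-124 name; on the left all squares lie below 0 on the source axis.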

How the data were processed

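The authors deposited 6 tables of read counts per mature miRBase name, 1 per oil and concentration with the control libraries of that oil, per the file headers. How reads were aligned, against which release, and where a read went that matched several species' names is not stated in the sources used here. A single red drum miRNA may therefore have its reads split between names. The authors also deposited 6 DESeq2 tables with a mean signal per group, a score (exposed minus control mean), the log2 fold change and the p-value with its FDR, per the file headers and, for DESeq2, the submitters' processing notes. They were used only where named.

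Counts were fitted with edgeR 4.0.16 in R 4.3.3 (TMM, quasi-likelihood F test, Benjamini-Hochberg adjustment over all names of a fit, calls under 0.05). Names needed at least 10 counts in at least 3 libraries and 1 count in every library of the fit, because 38% to 43.4% of the listed names had a 0 in some library. A name that disappears in 1 group is not tested by this. Each concentration was fitted within its own table. Slopes used 12 libraries (185 slick and 190 source names before the filter, without 7 and 3 names whose control counts differed between tables), and contrasts between oils used 24. SE is the log2 fold change over the square root of F. DESeq2 1.42.0 was an alternative. The fits were also run on simulated counts with a common dispersion and larger changes than the members had against control. How well smaller changes are found was not tested this way. The counting error given for the members' values covers counting only, whereas SEs are those of edgeR and SDs lie between libraries. 0 columns stayed unmatched.

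Named were both members, the nervous system list that could be fitted and the 5 names most like each member. The members, lists and the filter were chosen with earlier results of these data known. Same-numbered libraries correlated between -0.446 and 0.677 in their deviations from the group means for slick oil and between -0.341 and 0.419 for source oil. Their mean r was 0.0451, against -0.0186 for differently numbered libraries, in slick oil. In source oil it was 0.0792 against -0.0383. The numbers were not taken as pairs in the main fits, and whether the libraries were paired was not tested. A block for the replicate number was an alternative.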

Additional observations from a re-analysis of the deposited data

How the results depend on the processing

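Of 520 alternative values for 40 results, 477 kept direction and, for the edgeR and DESeq2 fits, side of the threshold. The ratios and quotients among them were judged by direction alone. Most of the fitted results were not called in the main fit either. The causes of the other changes were not tested. dre-miR-124-4-5p at 5.00% slick oil was no longer called over all names (-0.81), with no count filter (-0.86) or with all 12 libraries (-0.77), and ola-miR-124-5p there was called with median-of-ratios size factors (-0.66) and by DESeq2 (-0.66). At this concentration median-of-ratios size factors gave calls for 6.42% of the 109 names and DESeq2 for 11%. Scaling by library totals alone shifted the median log2 change over all names to -0.13 at 5.00% slick oil and for the slick slope, to 0.22 at 0.27% source oil, from 0.03 to 0.27 at 0.54% source oil, from 0.091 to 0.35 for the source slope and from -0.0047 to -0.45 for the slick minus source response at the highest rank. Under them ola-miR-124-5p was at 0.48 at 0.54% source oil, the source slope of dre-miR-124-4-5p at 0.45, the highest against the lowest source concentration at 0.46 and 0.44 for dre-miR-124-4-5p and ola-miR-124-5p, and the slick minus source response of dre-miR-124-4-5p at the highest rank at -1.38, all called; ola-miR-124-5p at 2.50% slick oil turned to 0.11. ola-miR-124-5p at 0.54% source oil was called with all 12 libraries (0.30), and its source slope was not called with no count filter (0.29). At 0.135% source oil miR-124 over the other nervous system names turned to 0.43 without miR-9 and 0.072 with equal weights.

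Leaving out 1 library gave -0.91 to -0.69 for dre-miR-124-4-5p and -0.73 to -0.52 for ola-miR-124-5p at 5.00% slick oil, -0.18 to 0.31 and -0.97 to 0.35 at 2.50%, -0.049 to 0.086 and -0.040 to 0.18 for dre-miR-124-4-5p at 0.27% and 0.54% source oil, -0.85 to -0.60 for its slick slope and 0.25 to 0.36 for the source slope of ola-miR-124-5p. The slick minus source response of dre-miR-124-4-5p ranged from -0.31 to 0.070 at the lowest and from -0.20 to 0.34 at the middle rank. That of ola-miR-124-5p ranged from -1.16 to 0.31 at the middle rank, called (-1.16) without the third 2.50% library. Without that library edgeR called 18.8% of the 96 names, 12 higher and 6 lower, against 0% in the main fit. The log2 ratio of both names at 2.50% slick oil ranged from -0.044 to 0.96, and miR-124 over the other nervous system names from -0.27 to 0.093 at 1.25% and from -0.36 to 0.53 at 2.50%.

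The number of names called fell from 47 to 22 at 0.54%, from 27 to 2 at 0.27% source oil and from 6 to 3 at 5.00% slick oil over all names (3 by library totals, 1 with no count filter and 1 with all 12 libraries), to 5 at 0.54% and 1 at 0.27% with no count filter, and from 27 to 1 at 0.27% with the replicate block, which left neither nervous system name called there (adjusted p = 0.0518 for both). Without 1 library it was 1 to 15 at 5.00% slick oil, 1 to 43 at 0.27% and 26 or more at 0.54%. DESeq2 called 12 at 5.00% slick and 13 at 0.135% source oil, where edgeR called 0, 2 over all names and up to 9 without 1 library. At 1.25% slick oil it was 0, and at most 2 under any alternative. With the replicate block dre-miR-124-4-5p at 5.00% slick oil was at -0.82 and no call of a miR-124 name changed. Of the 5 names most like dre-miR-124-4-5p 3 stayed by Spearman's rho and 3 after centring on group means, and 3 and 2 for ola-miR-124-5p.

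The 5.00% slick libraries were the shallowest, and the names had 570 to 1173 counts there. The lowest count of a member lay outside that group, 477 for ola-miR-124-5p in the second library at 2.50% slick oil. With 3 libraries a group, no exact test can go below 0.1.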

Other observations

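Besides both members, sma-miR-124b-5p was listed in 5 of the 6 tables with 0 to 7 counts per library, too few for any comparison. Both members summed, which a split of reads between them would not affect, were at 1096 ± 178 CPM in the slick controls and at 962 ± 233, 1167 ± 676 and 695 ± 52.7 CPM at 1.25%, 2.50% and 5.00% slick oil (SD, n = 3). The sum was at 819.66 ± 29.9 CPM in the source controls and at 844 ± 46.7, 914 ± 79.9 and 971 ± 64.3 CPM at 0.135%, 0.27% and 0.54% source oil. The summed level was below every slick control (926 to 1280 CPM) in each 5.00% library (636 to 737 CPM). It was above every source control (795 to 853 CPM) in each 0.54% library (933 to 1045 CPM). Scaled within each comparison, 11% of the 109 single names lay below every control at 5.00% slick oil. At 0.54% source oil 30.3% of the 119 names lay above every control. No test was run on the sum.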
